A study of Mus musculus with 25 samples.

Results

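The genes described here are 10 mouse genes transcribed in a short burst at the 2-cell stage of the embryo: the 6 Zscan4 copies Zscan4a to Zscan4f, Duxf3, Tcstv1, Tcstv3 and Zfp352. They were chosen by name, as the rows of the 2 deposited RNA tables that carry these symbols, and the Zscan4 rows were also added up because near-identical copies share reads. All 10 had a row among the 35731 genes of the table of mouse embryonic stem cells (mESCs), and 9 had a row among the 24062 genes of the table of 8-cell embryos, which lists no Duxf3. The embryo table has a row named Dux, which is given apart below. All 10 passed the filter on low counts in mESCs and 3 passed it in embryos.

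The mESCs were of the v6.5 line, untreated, and either wild type (WT, 3 RNA libraries) or labelled Dot1L KO (2 RNA libraries). Dot1L is the enzyme that methylates histone H3 at lysine K79, a mark of transcribed gene bodies. The embryos were wild type, from the cross B6D2F1 x Cast/EiJ, were collected 56 hours after fertilization in pools of 30 to 35, and had received DMSO, a solvent (2 pools), or SGC0946, an inhibitor of Dot1L (2 pools). Chromatin immunoprecipitation (ChIP) peak lists of H3K79me2 and H3K79me3 came from mESCs, with 2 WT and 2 KO libraries per mark. How the KO was made, whether its libraries come from 1 clone, and the dose and timing of SGC0946 are not given in the sources used here. The labels do not say that replicates are separate cultures, so the p-values measure the spread between these libraries, which may be technical.

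Duxf3 belongs to the Dux family, and Dux encodes a double homeobox transcription factor that starts the 2-cell programme. It activates the Zscan4 genes, which encode zinc finger proteins linked to telomere maintenance, and other genes of that stage such as Zfp352, a zinc finger gene, and the small genes Tcstv1 and Tcstv3. In mESC cultures this programme is known to be switched on transiently in a small share of the cells. All values below are from bulk RNA, in which more cells in that state and more RNA per such cell cannot be told apart.

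Library totals were 26860527 to 33755064 estimated counts in mESCs and 24950199 to 32479590 counts in embryos. Dot1l RNA was present in every library. It stood at 96.9 to 104 CPM (counts scaled to a common library total) in WT and at 81.4 and 71.5 CPM in KO. This was a log2 fold change of -0.39 ± 0.059 (standard error implied by the F test, SE, with edgeR adjusted p = 0.000161). Which exons the KO removed is not known here, so this transcript level checks little. Of 19532 genes tested in mESCs with edgeR's quasi-likelihood test, 43.9% were called at an adjusted p of less than 0.05, with 22.3% up in KO and 21.6% down, so that a call by itself does not set a gene apart. Of the called genes 50.8% were higher, and 63.5% with upper-quartile scaling, which moved the median of all genes by 0.067 on the log2 scale. Pluripotency markers stood at 4425 to 4485 CPM summed in WT and 3936 to 4083 CPM in KO, with 8 of 8 tested and none at 0. Of these 8, 4 were called lower and 2 higher, among them Nanog at 493 to 499 CPM in WT and 231 and 256 CPM in KO (log2 fold change -1.02 ± 0.045) and Tdgf1 with 0.32 ± 0.033. Their part in the results below was not tested.

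The Zscan4 genes lie in 1 cluster on chromosome 7. The annotation used (RefSeq, GRCm38.p6, the assembly of the mm10 build named in the submitters' processing notes) places Zscan4a at 10794241 to 10799065 and Zscan4f at 11397915 to 11402318, and it classes Zscan4a as a transcribed pseudogene, Zscan4e as a pseudogene and the other 4 copies as protein coding. Windows of 250 bases upstream of the start were found for 6 of the 10 members: Zscan4b, Zscan4c, Zscan4d, Zscan4f, Duxf3 and Zfp352. The 4 Zscan4 windows are shown because these copies moved together, and they show how alike the copies are. Each line is a stretch of 195 bases read 5′ to 3′ on the gene's strand, and the capitals mark the letters TGATTCAA, which begin the motif known for Dux, and the TATA box letters TATAAA.
Zscan4b: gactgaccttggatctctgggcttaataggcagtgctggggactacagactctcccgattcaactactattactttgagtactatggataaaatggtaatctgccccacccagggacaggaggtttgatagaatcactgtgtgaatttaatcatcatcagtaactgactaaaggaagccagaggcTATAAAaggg
Zscan4c: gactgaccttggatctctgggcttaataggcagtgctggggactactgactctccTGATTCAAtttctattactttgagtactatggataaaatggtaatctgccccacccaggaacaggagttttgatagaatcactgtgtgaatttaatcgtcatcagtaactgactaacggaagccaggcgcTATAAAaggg
Zscan4d: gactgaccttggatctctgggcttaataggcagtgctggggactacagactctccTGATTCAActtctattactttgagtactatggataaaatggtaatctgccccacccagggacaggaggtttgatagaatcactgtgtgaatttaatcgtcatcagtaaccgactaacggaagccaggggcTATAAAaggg
Zscan4f: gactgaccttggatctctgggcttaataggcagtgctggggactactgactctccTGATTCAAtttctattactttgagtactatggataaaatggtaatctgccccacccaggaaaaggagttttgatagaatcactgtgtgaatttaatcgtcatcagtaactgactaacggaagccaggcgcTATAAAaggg
The stretches are at chr7:10905072-10905266 on the minus strand (Zscan4b), chr7:11005506-11005700 on the plus strand (Zscan4c), chr7:11166204-11166398 on the minus strand (Zscan4d) and chr7:11397699-11397893 on the plus strand (Zscan4f). They were identical at 94.4% (Zscan4b and Zscan4f) to 99.5% (Zscan4c and Zscan4f) of positions. Counted from 1 at the first base of the stretch, with the base of Zscan4f first, Zscan4c differed from Zscan4f by A117C alone, and Zscan4b differed from it at 11 positions, among them T56C inside the first capitals. TGATTCAA began 184, 195 and 161 bases before the start of Zscan4c, Zscan4d and Zscan4f and was not in the window of Zscan4b. On either strand it was in 0.539% of 32851 RefSeq windows of the same length. Only these first letters were searched for, so a match does not show the whole motif. TATAAA lay 31 to 65 bases before the start of the 4 copies and was in 12.4% of all windows on either strand.

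All 6 Zscan4 copies rose in Dot1L KO mESCs, by 2.45 to 2.96 times. Added up, they stood at 44.4, 42.2 and 43.6 CPM in the WT libraries and at 111 and 128 CPM in the KO libraries. The WT libraries lay within 3 CPM of each other. Every KO library was above them all, and groups did not overlap in CPM for 62.4% of all genes tested. From a WT mean of 43.4 ± 1.12 CPM (SD, n = 3) the sum rose to 119 ± 11.7 CPM (SD, n = 2). The fit put this at 2.75-fold, or 1.46 ± 0.059 (SE) on the log2 scale (edgeR adjusted p = 1.3e-09). That change was larger than that of 98.2% of the genes tested. An exact two-sided permutation test over the 5 libraries alone gives p = 0.2, the smallest its 10 splits allow.

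**Figure D1:**
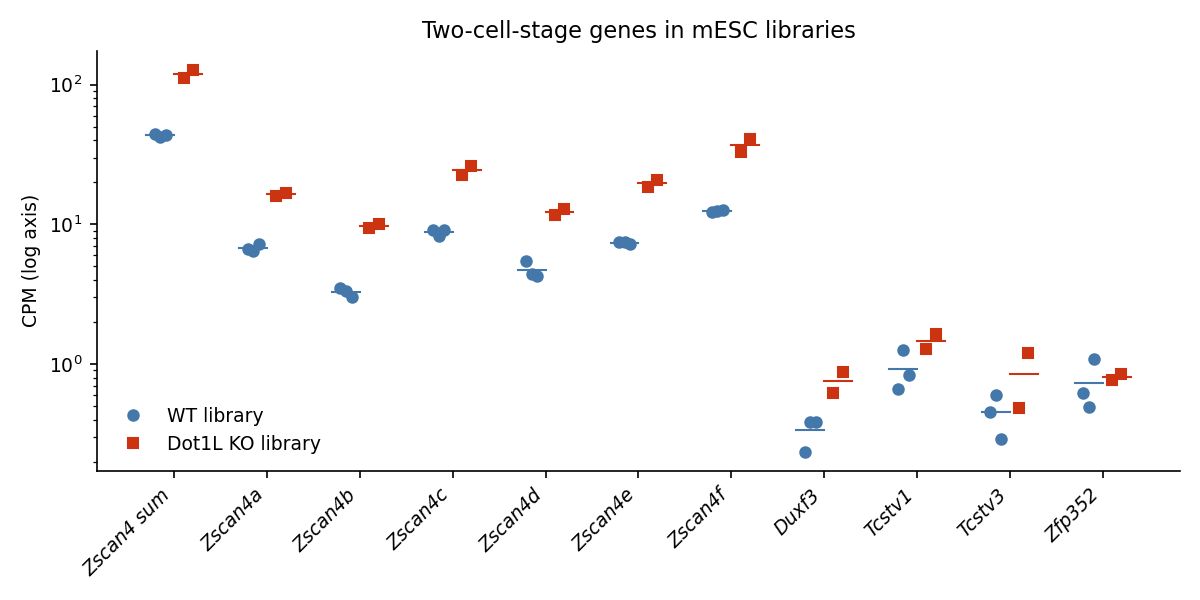
CPM on a log axis of the Zscan4 sum and of each of the 10 genes in the 3 WT and 2 Dot1L KO mESC libraries (points), with group means (lines). The Zscan4 sum lies at 42.2 to 44.4 CPM in WT and at 111 and 128 CPM in KO, and each copy is apart in the same direction, while Tcstv3 and Zfp352 overlap between genotypes.

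Zscan4f, the copy with the most counts, stood at 12.3, 12.5 and 12.8 CPM in WT and at 33.0 and 41.0 CPM in KO, a log2 fold change of 1.57 ± 0.085 (edgeR adjusted p = 1.7e-08). Zscan4c, in which TGATTCAA and nearly all of the printed stretch are those of Zscan4f, stood at 9.06, 8.18 and 9.13 CPM in WT and at 22.7 and 26.0 CPM in KO. Zscan4b, the copy without TGATTCAA in its window, stood at 3.49, 3.35 and 3.02 CPM in WT and at 9.40 and 10.1 CPM in KO. The log2 fold changes of Zscan4c and Zscan4b were 1.47 ± 0.085 and 1.57 ± 0.114. Copies that share reads are not independent, so these SEs do not judge a difference between copies. The part of TGATTCAA in the change was not tested. Zscan4d, the remaining protein-coding copy, changed by 1.38 ± 0.114. The 2 copies annotated as pseudogenes changed by 1.29 ± 0.087 (Zscan4a, 6.73 to 16.4 CPM in the group means) and 1.41 ± 0.085 (Zscan4e, 7.40 to 19.6 CPM). No adjusted p of a copy was above 7.3e-07 (edgeR).

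The shares of the copies in their sum shifted little. Zscan4f held 27.7 to 29.5% of the Zscan4 counts in WT and 29.7 and 32.1% in KO, Zscan4c held 19.4 to 20.9% and 20.4% in both KO libraries, and Zscan4b held 6.93 to 7.92% and 7.91 to 8.46%. Zscan4a held 14.9 to 16.5% in WT and 13.2 to 14.5% in KO. How reads shared by copies were divided is not given in the sources used here, so the value of a single copy is less certain than that of the sum. The sum kept its call in mESCs under every alternative run, with log2 fold changes of 1.35 to 1.55.

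Duxf3 had few reads. It had 6.50, 12.5 and 10.96 estimated counts in WT and 17.7 and 27.0 in KO, which is 0.235 to 0.385 CPM and 0.623 and 0.877 CPM. The KO libraries were both above the WT libraries, and groups did not overlap in CPM for 62.4% of all genes tested. Duxf3 rose with a log2 fold change of 1.16 ± 0.374 (edgeR adjusted p = 0.0234). The call was lost with DESeq2 (adjusted p = 0.112), without WT replicate 1 (edgeR adjusted p = 0.0687) and without KO replicate 2 (edgeR adjusted p = 0.195), where the log2 fold change stayed between 0.90 and 1.17. Over all alternatives run its adjusted p was 0.0174 to 0.195. Duxf3 is at 58229505 to 58233089 of chromosome 10, in a repeat array of similar genes, and reads it shares with them are uncertain in the same way.

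The other 3 members did not pass the test. The WT libraries held 18.3, 41.0 and 23.8 estimated counts of Tcstv1 and the KO libraries 36.5 and 50.5, a log2 fold change of 0.66 ± 0.287 (edgeR adjusted p = 0.0828). WT replicate 2 lay among the KO libraries by count and just under them in CPM. Without that library the change was 0.97 (edgeR adjusted p = 0.0250), and with no filter on low counts the adjusted p was 0.0485. Of Tcstv3 there were 12.6, 19.6 and 8.33 estimated counts in WT libraries, against 13.8 and 36.9 with the KO. Its groups overlapped, KO replicate 2 alone was high, and the log2 fold change of 0.89 ± 0.427 (edgeR adjusted p = 0.112) became 1.38 without KO replicate 1 (edgeR adjusted p = 0.0250) and 0.094 without KO replicate 2. Together, 7 of the 10 members were called, all higher (6 Zscan4 copies and Duxf3), and 0 lower, beside 22.3% of all genes called higher.

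Zfp352, on chromosome 4 (90218820 to 90225687), overlapped between genotypes. The WT libraries held 17, 16 and 31 of its counts, and the KO libraries, with 22 and 26, lay inside that range. Its log2 fold change was 0.16 ± 0.353 (edgeR adjusted p = 0.745) and was -0.071 without WT replicate 2. Its window of 250 bases at chr4:90218570-90218819 on the plus strand is shown for comparison, with the repeated letters GGACAACACAC in capitals.
Zfp352: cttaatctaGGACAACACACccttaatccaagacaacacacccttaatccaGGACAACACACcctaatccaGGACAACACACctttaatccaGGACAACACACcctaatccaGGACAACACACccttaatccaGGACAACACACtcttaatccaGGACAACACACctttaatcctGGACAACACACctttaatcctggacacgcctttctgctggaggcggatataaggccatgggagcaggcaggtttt
GGACAACACAC was found 8 times and TAATCC 9 times in this window, and no other of the 32851 windows held either as often on one strand. On either strand TAATCC was in 6.25% of windows, and GGACAACACAC was in 1, that of Zfp352. GGACAACACAC was chosen from this window, as one of its most repeated runs of that length, and TAATCC is part of the same repeat. That this window holds them most often therefore follows from the choice and is no test. Neither TGATTCAA nor TATAAA was in the windows of Zfp352 or Duxf3.

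Within each library, the Zscan4 sum was set against the other members. Per count of Zfp352 there were 72.1, 85.9 and 40.5 Zscan4 counts in WT and 144 and 151 in KO, a mean of 66.2 ± 23.3 (SD, n = 3) against 147 ± 5.02 (SD, n = 2). The groups did not overlap, as was so in CPM for 62.4% of all genes tested. Per count of Tcstv1 there were 51.1 ± 16.8 in WT and 82.2 ± 6.37 in KO, also without overlap. Per count of Duxf3 there were 138 ± 44.2 and 162 ± 23.3, and per count of Tcstv3 there were 106 ± 40.9 and 168 ± 87.3, both with overlap. Whether these ratios differ between genotypes was not tested. They hold for counts, not for RNA per length.

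**Figure D2:**
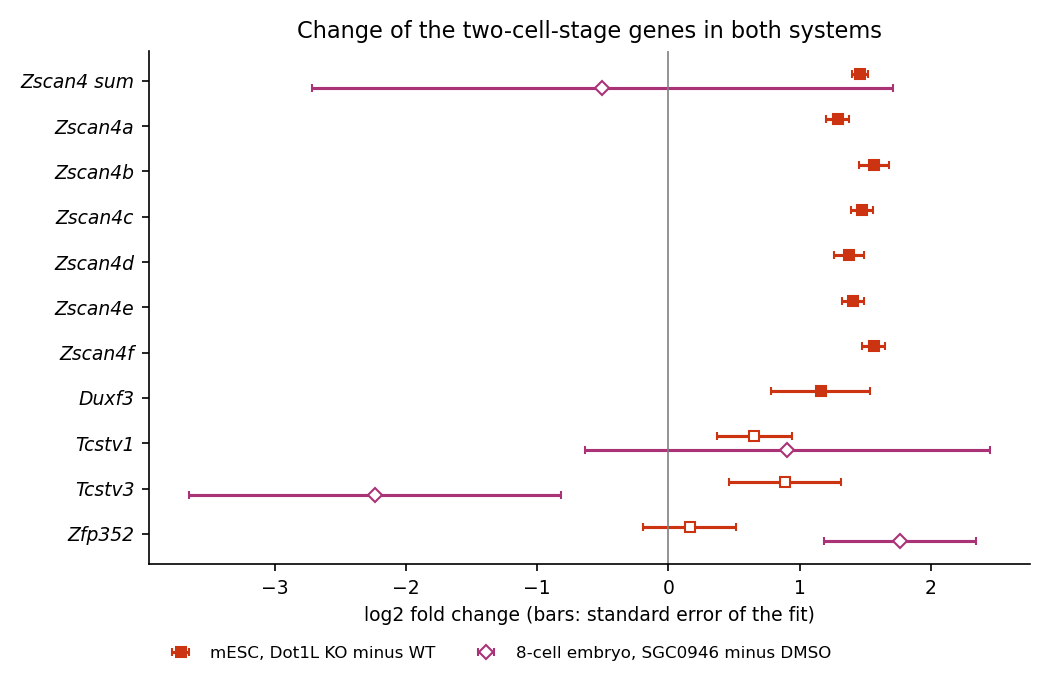
Log2 fold changes with standard errors of the Zscan4 sum and of each gene, Dot1L KO minus WT in mESCs (squares, filled where the adjusted p was under 0.05) and SGC0946 minus DMSO in 8-cell embryos (open diamonds, where a gene passed the filter). In mESCs the Zscan4 copies lie between 1.29 and 1.57, and in embryos no gene passed the threshold.

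Further genes of the 2-cell programme were taken from a list of 41 symbols outside the members: repeat-family genes such as Usp17l, Tdpoz and Obox, Zscan4 pseudogenes and single genes. Of these, 27 had a row and 20 were tested. Of these 20, 10 passed the test, all higher in KO and 0 lower, beside 22.3% of all genes called higher, with a median log2 fold change of 0.59 beside 0.00078 over all genes. The Zscan4 pseudogenes were among the largest: Zscan4-ps2 changed by 1.66 ± 0.081, Zscan4-ps3 by 1.53 ± 0.108 and Zscan4-ps1 by 0.83 ± 0.159. They can share reads with the copies, and without them 7 of 17 were called, with a median of 0.53.

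Usp17le, one of a family of ubiquitin-specific proteases, rose from 2.10, 1.69 and 1.78 CPM in WT to 4.45 and 5.45 CPM in KO, a log2 fold change of 1.42 ± 0.168 (edgeR adjusted p = 2.0e-05). Both KO libraries were more than 2 times the highest WT library. Gm20767 rose from 1.34, 1.34 and 1.16 CPM to 3.48 and 2.58 CPM (1.23 ± 0.202). Arg2, a mitochondrial arginase, stood at 1.09, 1.62 and 0.911 CPM in WT and at 2.38 and 1.79 CPM in KO (0.77 ± 0.258, edgeR adjusted p = 0.0286), a call that was lost, among other settings, with DESeq2 (adjusted p = 0.0721) and without WT replicate 1, WT replicate 3 or KO replicate 1 (edgeR adjusted p = 0.0755, 0.0966 and 0.212). Usp17la (0.12 ± 0.092) and Obox3 (-0.051 ± 0.165) were among the 10 that did not pass the test.

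Genes known to restrain the 2-cell programme in mESCs formed a second list of 21, all tested. They include Trim28 and Setdb1 of the H3K9 methylation machinery, the histone chaperone subunits Chaf1a and Chaf1b, the histone demethylase Kdm1a, and Mga, L3mbtl2, Pcgf6 and Rybp of a variant Polycomb complex. Of the 21, 11 were lower and 1 was higher in KO, beside 21.6% and 22.3% of all genes, with a median log2 fold change of -0.13. With upper-quartile scaling 7 were lower and 1 higher. The changes were small beside those of the Zscan4 genes.

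The largest fall was that of L3mbtl2, from 181, 176 and 181 CPM in WT to 118 and 125 CPM in KO (log2 fold change -0.56 ± 0.044, edgeR adjusted p = 4.5e-07). Rif1, a telomere and replication timing factor, fell from 1361, 1421 and 1421 CPM to 953 and 1073 CPM (-0.47 ± 0.047). For both genes the genotypes were far apart relative to the spread within them. Mga, a scaffold of that Polycomb complex, fell by 0.32 on the log2 scale and Ncl, the nucleolar protein nucleolin, by 0.27, Rybp by 0.20 and Pcgf6 by 0.19. Zmym2, a partner of Kdm1a, rose by 0.26 ± 0.046. Trim28 (-0.081 ± 0.038), Kdm1a (0.020 ± 0.038) and Chaf1a (-0.024 ± 0.041) did not pass the test.

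Of 5 genes known to promote the programme, 3 fell and 0 rose, beside 21.6% of all genes called lower and 22.3% higher. Dppa2, which with Dppa4 activates Dux, fell from 159, 154 and 148 CPM in WT to 103 and 124 CPM in KO (log2 fold change -0.44 ± 0.066, edgeR adjusted p = 0.000155). Dppa4 itself stood at 75.5 to 81.1 CPM and at 74.8 and 78.7 CPM (-0.022 ± 0.050) and did not pass the test. Dppa3 fell by 0.35 and Trp53, the gene of p53, by 0.26 on the log2 scale. Nelfa had a log2 fold change of 0.090 ± 0.047 and did not pass, and with upper-quartile scaling 1 of the 5 was called higher.

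**Figure D3:**
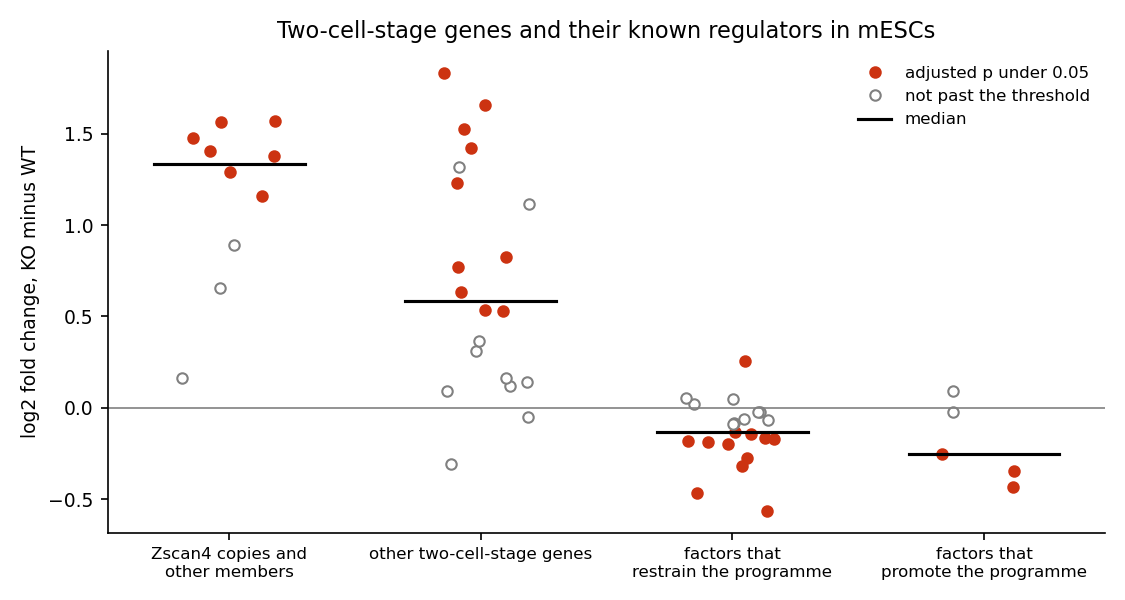
Log2 fold changes in mESCs, KO minus WT, of the 10 members, 20 other 2-cell genes, 21 genes that restrain and 5 that promote the programme (points, filled where the adjusted p was under 0.05) with list medians (black lines). The median is 0.59 for the other 2-cell genes and -0.13 for the restraining genes, of which 11 were lower and 1 higher.

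Markers of other cells moved in the same libraries. Of 7 primitive endoderm markers, 6 were tested and 4 were called higher in KO (Gata6, Sox17, Dab2 and Pdgfra), beside 22.3% of all genes. Gata4 (log2 fold change -0.13 ± 0.134) and Sox7 (-0.19 ± 0.165) did not rise and did not pass the test. The summed level of this list was 18.7 to 19.98 CPM in WT and 33.7 to 35.6 CPM in KO. Of 8 fibroblast markers, 7 were tested and 4 were called higher, beside 22.3% of all genes, with 161 to 204 CPM summed in WT and 209 to 260 CPM in KO. Col1a2 (0.29 ± 0.115), Col3a1 (-0.14 ± 0.119) and Dcn (-0.12 ± 0.269) did not pass the test. Of 7 trophectoderm markers 5 were called higher and 1 lower, beside 22.3% and 21.6% of all genes, with 121 to 126 CPM summed in WT and 123 to 127 CPM in KO. No marker of these lists was at 0 in all libraries. Their part in the change of the Zscan4 genes was not tested.

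The genes whose pattern was most like that of the Zscan4 sum were Cers1, a ceramide synthase, Spry4, a feedback inhibitor of receptor tyrosine kinase signalling, Nt5e, an ecto-nucleotidase, Ramp3, a receptor-modifying protein, and Crym. Likeness was the root mean square difference of centred log2 CPM over the 5 libraries, among 16422 genes, and it ran from 0.033 (Cers1) to 0.084 (Crym) log2 units. Spry4 rose from 87.98 to 232 CPM and Cers1 from 1.83 to 5.10 CPM in the group means. The 5 libraries hold 2 genotypes, so the measure weighs mainly the size of the change. In embryos, where the Zscan4 sum was at 0 in 2 of 4 pools, the nearest gene was Hal at 0.519 log2 units.

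In 8-cell embryos the Zscan4 genes had few reads, and no member passed the test with SGC0946. The Zscan4 sum was 0 and 40 counts in the DMSO pools and 28 and 0 counts in the SGC0946 pools. Each treatment had 1 pool with and 1 pool without reads, so the groups overlapped fully. A count of 0 allows a level of up to 0.111 CPM in the first DMSO pool and 0.0913 CPM in the second SGC0946 pool, taking 3 counts as the limit. That limit covers counting error alone, as PCR copies are not separate molecules. The log2 fold change of -0.50 ± 2.21 (edgeR adjusted p = 0.988) reversed with the pools included: it was 6.94 without DMSO replicate 2, which leaves 1 DMSO pool without reads and 1 library in that group, and 0.50 without SGC0946 replicate 2.

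The reads were counted for different sets of copies in the 2 pools that had any. How reads shared by copies were divided is not given for embryos either, so which copies were transcribed is uncertain. In DMSO replicate 2 they were 26 of Zscan4a, 8 of Zscan4f, 5 of Zscan4c and 1 of Zscan4e. In SGC0946 replicate 1 they were 12 of Zscan4b, 11 of Zscan4d and 5 of Zscan4a. Zscan4a alone had reads in both, and in no pool did more than 4 copies have any.

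Zfp352 was the member with the most counts in embryos. Its counts were 48 and 59 with DMSO and 205 and 189 with SGC0946, which is 1.77 and 2.22 CPM against 7.82 and 5.75 CPM. Both SGC0946 pools were above both DMSO pools, as groups did not overlap for 39.2% of all genes tested. The log2 fold change of 1.76 ± 0.579 had an unadjusted p of 0.00882 and an adjusted p of 0.407 (edgeR) and did not pass the threshold. It stayed between 1.53 and 1.97 under every alternative, with adjusted p between 0.148 and 0.999. In mESCs, with the KO in place of the inhibitor, the value was 0.16 ± 0.353, and the difference between the systems was not tested.

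Tcstv1 and Tcstv3 varied between pools of 1 treatment. Tcstv1 had 12 and 23 counts with DMSO and 60 and 6 with SGC0946, so that the inhibitor pools lay on both sides of the DMSO pools (log2 fold change 0.91 ± 1.54). Its direction reversed with limma-voom (-0.13) and without SGC0946 replicate 1 (-1.81). Tcstv3 had 29 and 82 counts with DMSO and 2 and 26 with SGC0946 (-2.24 ± 1.42, edgeR adjusted p = 0.759). Its groups did not overlap and were close at their edges. A row named Dux, which the reference tables do not pair with Duxf3, had 5 and 14 counts with DMSO and 24 and 0 with SGC0946. This row passed the filter but was not counted among the members. Its groups overlapped and it did not pass the test (log2 fold change 0.35 ± 2.22, edgeR adjusted p = 0.995).

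**Figure D4:**
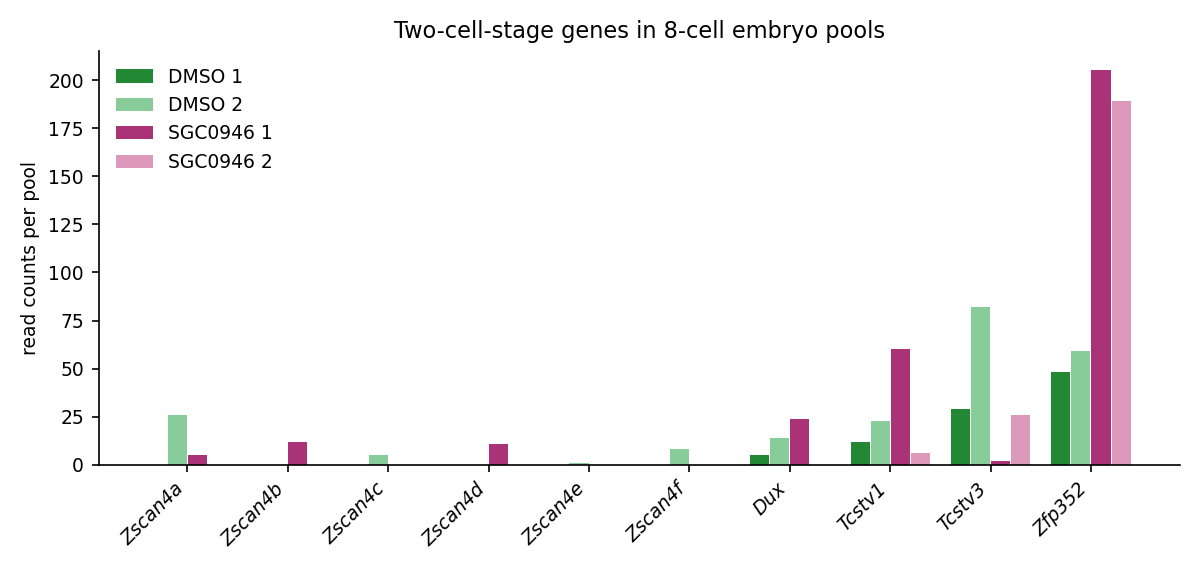
Read counts of the 6 Zscan4 genes, the row named Dux, Tcstv1, Tcstv3 and Zfp352 in each of the 4 pools of 8-cell embryos (bars). Zfp352 has 48 and 59 counts with DMSO and 205 and 189 with SGC0946, and the Zscan4 copies have reads in 1 pool of each treatment.

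Of the 3 members tested in embryos, 0 were called with edgeR, DESeq2 or limma-voom, and 1 (Zfp352) had an unadjusted p under 0.05 with edgeR. Of all 14351 genes tested with edgeR, 0% were called and 8.15% had an unadjusted p under 0.05. DESeq2 called 126 genes and limma-voom 55. Of the other 2-cell list 24 genes were tested, 0 were called, and 2 had an unadjusted p under 0.05, AF067063 and B020004J07Rik, both lower with SGC0946. AF067063 had 201 and 305 counts with DMSO and 99 and 178 with SGC0946. Of the genes named above that were called in mESCs from the other 2-cell, restraining and promoting lists, 3, 7 and 3 were tested in embryos, with log2 fold changes of -0.95 to 0.51, -0.33 to 0.10 and -0.45 to -0.22, and 0 were called. The median log2 fold change of the other 2-cell list was 0.0012 beside 0.015 over all genes. In the 4 pools this list summed to 1463 to 1736 CPM, most of it Sp110 with 1256 to 1486 CPM.

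The deposited ChIP lists give the peaks of each library as the authors called them. A gene is called marked here where a peak of each WT list covers 1 bp or more of its body. No member had an H3K79me2 peak (0 of 10), beside 19.4% of the 49980 annotated genes, and 1 of 10, Duxf3, had an H3K79me3 peak, beside 5.25% of genes. Of the other 2-cell genes, 0 of the 34 with a position were marked by either modification. All 21 genes that restrain the programme carried H3K79me2 in WT and 9 of them H3K79me3, and of the 5 that promote it 4 carried H3K79me2 and 1 H3K79me3. Among the marker lists named above, each mark was on 8 of 8 pluripotency, 0 of 8 fibroblast, 0 of 7 primitive endoderm and 1 of 7 trophectoderm markers. Neither the absence nor the presence of peaks was thus particular to genes of this programme, and the part of the RNA level was not tested. Whether reads from near-identical copies could enter the peak lists is not given in the sources used here, and its part in the absence of peaks was not tested.

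The Zscan4 cluster, 820 kb from the first to the last Zscan4 gene, pseudogenes included, held 0 H3K79me2 peaks in either WT list. It held 11 and 4 H3K79me3 peaks in the WT lists, covering 3956 and 1372 bp, of which none lay over a Zscan4 gene, and 0 in either KO list. The nearest of them was 5.18 and 6.55 kb from Zscan4b. The nearest H3K79me2 peak to any Zscan4 gene was 299 and 300 kb away, from Zscan4a. The 425 kb from Tcstv1 to Tcstv3 on chromosome 13 held 4 and 2 H3K79me3 peaks in WT, none over the Tcstv genes, 0 in KO, and 0 H3K79me2 peaks.

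Duxf3 was the 1 member with an H3K79me3 peak in both WT lists. In the WT lists 2 and 3 peaks covered 1443 and 1199 bp of its body of 3585 bp, with an enrichment of up to 3.65 and 3.26-fold as given by the authors. Peaks were also present in the KO lists, where 2 and 1 peaks covered 646 and 191 bp with up to 2.64 and 2.13-fold. The 4 lists held 19800, 7338, 178 and 328 peaks in all. The strongest Duxf3 peak had a −log10 q of 29.7 and 19.1 in WT and of 11.3 and 4.68 in KO. By this value it ranked 177 and 216 in the WT lists and 28 and 148 in the KO lists. The median enrichment of a list was 3.93 and 4.34-fold in WT and 4.11 and 4.45-fold in KO, above the highest of Duxf3 in each. Whether the peaks called in KO, in a repeat array, reflect the mark was not tested. The 10 kb beyond the end of Duxf3 held further H3K79me3 peaks in all 4 lists, and H3K79me2 had no peak there in any list. The peak lists give no read counts, so the heights are not compared between lists.

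**Figure D5:**
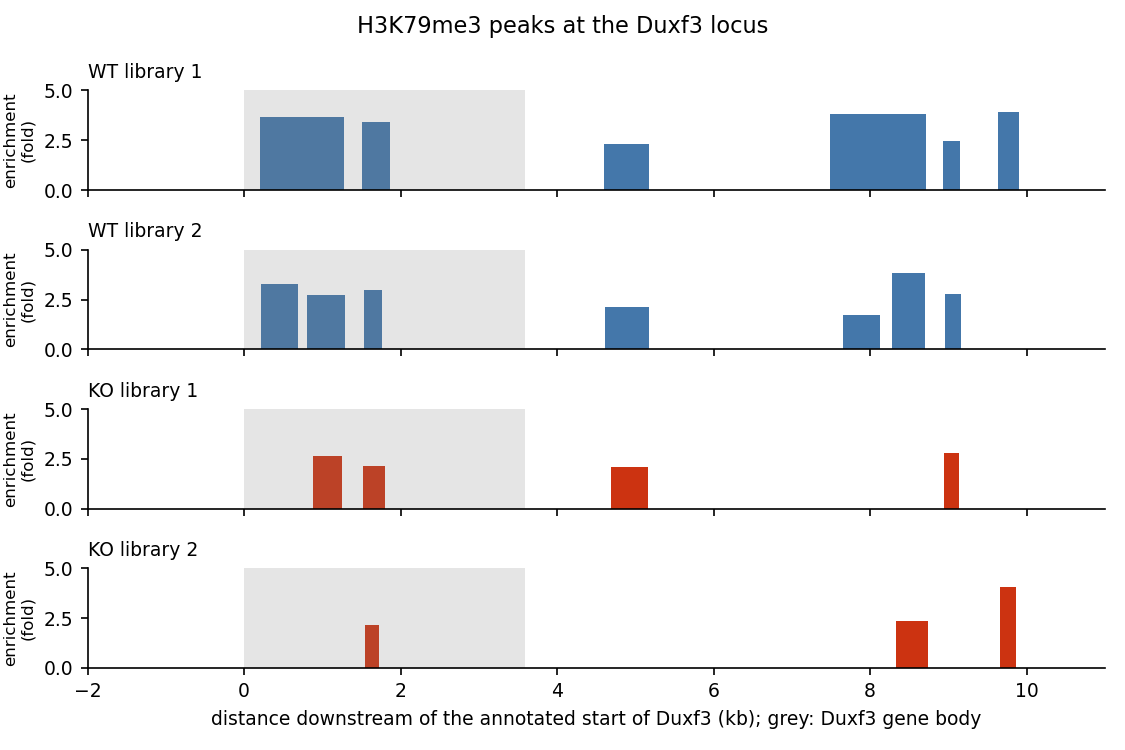
H3K79me3 peaks of each mESC library by distance from the annotated start of Duxf3 (kb, in the direction of transcription), with the enrichment over background given by the authors as bar height and the gene body in grey. Peaks cover 1443 and 1199 bp of the gene in WT and 646 and 191 bp in KO.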

How the data were processed

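RNA of 5 mESC libraries and 4 embryo pools and 8 ChIP peak lists were used, with groups taken from the labels. The input libraries were not used here. The members and lists were chosen with earlier results of these data known. The deposited mESC table holds estimated counts per Ensembl gene, and the deposited embryo table holds whole read counts per symbol. Per the submitters' processing notes, kallisto, STAR and HTSeq were named for mESC RNA, STAR and HTSeq for embryos, and Bowtie2 and MACS2 for ChIP, all with mm10. Versions, strand setting and treatment of reads with several matches are not given in the sources used here. In the deposited peak lists, the score is that of the authors' caller, the enrichment is its fold (ratio) over background, and −log10 p and −log10 q are the authors' own.

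Estimated counts were rounded, after the Zscan4 rows were added up for the sum, and tested with edgeR 4.0.16 (filterByExpr, TMM, quasi-likelihood F test) in R 4.3.3 within each table, with Benjamini-Hochberg adjustment over all genes tested. CPM are counts over TMM-scaled totals, without a prior count. Log2 fold changes are those of the edgeR fit at its default settings. A prior count of 2 entered only the log2 CPM used for likeness, for correlations of deviations and for the permutation test. The SE of an edgeR log2 fold change is its absolute value over the square root of F, not a standard error given by the fit. The procedure was run on simulated counts with the same relative spread for all genes and changes only in genes above a floor on mean counts. Such a run does not judge genes with few or shared reads. DESeq2 1.42.0, limma-voom (limma 3.58.1), other scalings and filters, a replicate block and leaving out each library were alternatives. Whether replicate numbers pair the libraries is not given in the sources used here. Deviations from the group means of same-numbered libraries correlated at -0.042 and -0.086 in mESCs and 0.069 in embryos. With 2 pools per group the embryo value is the same for both numbers. Such correlations over all genes cannot settle whether libraries were paired. All members were named, and from each other list up to 6 called genes per direction with the largest change and a mean of at least 1 CPM, beside the 5 genes most like the Zscan4 sum. Genes named beside a list that did not pass the test, and the named markers, were chosen after their values were seen. Gene positions and windows upstream of starts came from RefSeq (GRCm38.p6). Plots used matplotlib 3.10.9.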

Additional observations from a re-analysis of the deposited data

How the results depend on the processing

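Of 433 recomputed values, 417 kept their direction and their side of the threshold, or for counts stayed within 1.5 times, 8 lost and 3 gained a call, and 5 reversed. The number of members called in mESCs was 6 to 8 of 10, and the 6 Zscan4 copies were called higher under each alternative run. Leaving out 1 library gave log2 fold changes of 1.35 to 1.55 for the Zscan4 sum in mESCs. For Zfp352 in mESCs it gave -0.071 to 0.55, reversing without WT replicate 2. In embryos it gave -7.45 to 6.94 for the Zscan4 sum, reversing without DMSO replicate 2 (6.94) and without SGC0946 replicate 2 (0.50), and -1.81 to 1.80 for Tcstv1, which also reversed with limma-voom (-0.13). Where an embryo or KO library was left out, the lone sample was assumed to vary like the other group. The cause of these reversals was not tested. With the Zscan4 pseudogenes left out, an alternative chosen after seeing the data, 7 other 2-cell genes were called in place of 10. The low counts of Duxf3, Tcstv1, Tcstv3 and Zfp352 limit what these libraries can show.

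In embryos no gene was called with edgeR, against 126 with DESeq2, 55 with limma-voom, 111 without a filter, 23 with at least 10 counts in every library, and 4, 8, 18 and 365 without DMSO replicate 1, DMSO replicate 2, SGC0946 replicate 1 and SGC0946 replicate 2. No member was among them.

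A replicate block on the label numbers gave 8160 called genes in mESCs (8572 without it) and 171 in embryos (0 without it). Whether the label numbers pair the libraries is not known. With the block 7 members were called in mESCs and 0 in embryos, and the Zscan4 sum kept its call. Of the genes named from the lists, Arg2 was not called with the block (edgeR adjusted p = 0.0698).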
